A study of Mus musculus with 2 samples.

Results

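Mucin-positive secretory cells of the mouse airway were described in 2 droplet single-cell RNA libraries of total lung. The cells were chosen by their measured UMI counts, where a UMI is the molecular tag that marks 1 captured transcript. Of 30408 barcodes, 27974 passed filters of at least 200 genes, at least 500 UMIs and at most 20% mitochondrial UMIs. A passing cell was called secretory when the secretoglobins Scgb1a1, Scgb3a1 and Scgb3a2 together made up at least 2% of its UMIs. It also had to hold at most 2 UMIs of the ciliated-cell genes Foxj1, Tmem212 and Ccdc153 and 0 UMIs of Ptprc, the gene of the leukocyte antigen CD45. A secretory cell was called mucin-positive when Muc5b, Muc5ac, Clca1 and Fcgbp summed to at least 5 UMIs and mucin-low when they summed to at most 1. The values of these genes are therefore descriptions, not results. This gave 138 mucin-positive cells, of which 113 lay in the Cre library and 25 in the control library, beside 89 Cre and 143 control mucin-low cells. A further 15 Cre and 5 control secretory cells had 2 to 4 mucin UMIs and entered neither group.

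The Cre library came from Nkx2.1 Cre;Lkb1f/f mice, which carry floxed alleles of Lkb1 and a Cre recombinase named for Nkx2.1, a transcription factor gene of the lung epithelium that is also active in thyroid and parts of the forebrain. The control library came from Lkb1f/f mice, which carry the same floxed alleles without Cre. Lkb1 (gene symbol Stk11) encodes the upstream kinase of AMPK and its relatives, among them the salt-inducible kinases that hold the CRTC coactivators of CREB out of the nucleus. Each library was made from 3 pooled mice aged 5 weeks, and no group with Cre and unfloxed alleles is described here. With 1 library per genotype no test between genotypes was possible. Ratios therefore carry exact 95% intervals that cover counting error only, and genotype, mice and library preparation cannot be told apart.

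Airway goblet cells store and release the gel-forming mucins MUC5B and MUC5AC. AGR2, a disulphide isomerase of the endoplasmic reticulum, is needed to fold them, and the transcription factors SPDEF and FOXA3 drive the goblet programme. In mouse airways the type 2 cytokine IL-13 acts through STAT6 on club cells, the main secretoglobin-producing cells, and induces Clca1, Muc5ac, Agr2, Itln1, Retnla and the chitinase-like gene Chil4. Muc5b is also made by club cells at rest.

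The sequences just before 3 genes are printed because these genes carry the contrasts below: Retnla had the highest level of the type 2 genes, Chil4 the largest difference between genotypes, and Agr2 divided the cells of the Cre library. They are the RefSeq windows of GRCm38.p6, 5′ to 3′ on the gene's own strand, kept to the bases before both the RefSeq and the GENCODE start. Retnla lies at chr16:48842359-48842550 on the plus strand, Agr2 at chr12:35992675-35992906 on the plus strand and Chil4 at chr3:106219508-106219729 on the minus strand. Capitals mark a match to TTC and GAA with 4 bases of any kind between them, a spacing that STAT6 binds. Other spacings between TTC and GAA were neither searched nor marked.
Retnla: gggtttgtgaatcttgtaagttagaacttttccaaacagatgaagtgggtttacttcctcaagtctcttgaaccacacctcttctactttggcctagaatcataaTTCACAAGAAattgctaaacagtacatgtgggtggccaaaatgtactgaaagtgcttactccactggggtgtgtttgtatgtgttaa
Agr2: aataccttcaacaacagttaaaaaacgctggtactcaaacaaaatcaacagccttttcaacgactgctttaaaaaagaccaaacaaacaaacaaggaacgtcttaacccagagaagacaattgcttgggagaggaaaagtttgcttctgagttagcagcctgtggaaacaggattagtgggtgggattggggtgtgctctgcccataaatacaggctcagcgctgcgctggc
Chil4: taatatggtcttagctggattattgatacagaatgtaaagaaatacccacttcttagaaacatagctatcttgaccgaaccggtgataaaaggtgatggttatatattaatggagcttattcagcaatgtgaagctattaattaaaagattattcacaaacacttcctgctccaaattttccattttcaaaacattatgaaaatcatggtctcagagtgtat
Of 14 goblet and type 2 genes looked up, 9 had a window, and this motif, which reads the same on both strands, was found in the 250 bases before the start of 1 of them, Retnla, beginning 145 bases before the RefSeq start. Of all 32851 windows of this length, 5.85% held it. The cyclic AMP response element TGACGTCA, searched in the same way, was found in 0 of the 9 windows and in 1.55% of all windows. A match is a description of the letters, and the absence of one says nothing of binding outside these bases.

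The Cre library held 16821 barcodes with 81598779 UMIs and the control library 13587 barcodes with 74219499 UMIs. The mucin-positive cells were among the deepest, with a median of 26834 UMIs in the Cre library (732 to 73247, 6 cells under 2000) and 49549 in the control library (26578 to 61892). Mucin-low cells had medians of 3078 UMIs in the Cre and 14267 in the control library, so detection by cell is also given after thinning each cell to a fixed number of UMIs. The libraries shared 68 barcodes, 0 of them mucin-positive, and Scrublet, which scores barcodes against simulated doublets, called 0 of the 138 cells a doublet. Stk11 had 35 UMIs (11.9 CPM, UMIs scaled to a total of 1000000) in Cre mucin-positive cells and 26 UMIs (21.4 CPM) in control mucin-positive cells, a ratio of 0.55 (0.32 to 0.96). The chemistry reads transcript 3′ ends and no source used here names the floxed exons, so this level does not check the deletion.

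Markers of other cell types differed in level. Foxi1 and Ascl3 of ionocytes, Trpm5 and Pou2f3 of tuft cells and Chga and Chgb of neuroendocrine cells stood at 0 in both groups of mucin-positive cells. Other markers of these types were detected at low level. The 6 ionocyte markers summed to 7.80 CPM in Cre and 3.29 CPM in control cells, the 8 tuft markers to 7.12 and 4.94 CPM. The 8 neuroendocrine markers summed to 2.03 and 2.47 CPM, and 8 B cell markers to 62.0 CPM in Cre and 56.8 CPM in control cells. The 10 markers of alveolar type 2 cells summed to 3147 CPM in Cre and 11220 CPM in control mucin-positive cells, and 1 control cell held 2902 of the 3436 control Sftpc UMIs. The 7 erythroid markers summed to 1051 CPM in Cre and 106 CPM in control cells. The 8 markers of type 2 innate lymphoid cells summed to 101 and 32.9 CPM. They include Areg, the only 1 of 2 measured that was at least 2-fold higher in Cre cells, beside 22.1% of all genes. Il1rl1, Il13 and Il2ra of that list stood at 0 in both groups. The 10 myeloid markers summed to 185 and 875 CPM, but their medians per cell were 145 CPM in Cre and 150.5 CPM in control cells. The highest control cell was at 11877 CPM. Of 4 myeloid markers measured, 2 were at least 2-fold higher in Cre cells and 1, Lyz2, lower, beside 22.1% and 1.5% of all genes. The part of these markers in the differences below was not tested. Free RNA is visible in B cells, which should lack all secretory genes. After thinning to 1000 UMIs, Retnla was seen in 13.98% of 1688 Cre and 0.886% of 2031 control B cells, against 90% of 110 Cre and 76% of 25 control mucin-positive cells. Muc5b was seen in 1.07% of Cre and 0.0985% of control B cells, against 80.9% of Cre and 40% of control mucin-positive cells. The B cells had medians of 2222 and 3312 UMIs in the Cre and control libraries.

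The 4 goblet markers Muc5b, Clca1, Agr2 and Spdef were all detected in both libraries, but not in the same cells. Muc5b, the baseline gel-forming mucin (chr7:141839070-141873084, GRCm38, as for all gene positions here), was found in 111 of 113 Cre and 25 of 25 control cells. Agr2 (chr12:35992907-36004087) was found in 64 Cre cells (56.6%, exact 95% interval 47.0 to 65.9) and 21 control cells (84%, 63.9 to 95.5). Clca1, a secreted protease of the mucus (chr3:145003817-145032776), was found in 56 Cre (49.6%) and 9 control cells (36%), and Spdef (chr17:27714352-27728955), a low-level transcript, in 22 Cre (19.5%) and 6 control cells (24%). At 5000 UMIs per cell Agr2 was seen in 49.5% of 105 Cre and 36% of 25 control cells, so the order of the libraries for Agr2 depended on depth. Because 49 Cre cells held no Agr2 UMI, the cells are called mucin-positive and not goblet cells throughout.

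Mucin-positive cells made up a larger share of secretory cells in the Cre library. They were 113 of 217 secretory cells there (52.1%, 45.2 to 58.9) and 25 of 173 in the control library (14.5%, 9.58 to 20.6), a ratio of 3.60 (2.32 to 5.8), or 1.85 on the log2 scale. Secretory cells as a whole were 1.44% (1.25 to 1.64) of passing cells in the Cre and 1.34% (1.15 to 1.56) in the control library, so the mucin-positive cells were 0.748% and 0.194% of all passing Cre and control cells. The share was chosen as a contrast with results of these data known, and 1 library per genotype gives no spread between mice. When every secretory cell was thinned to 2000 UMIs before the mucins were summed, 63 of 170 Cre cells (37.1%) and 4 of 145 control cells (2.76%) still met the rule, 3.75 on the log2 scale. Near the threshold, 6 Cre and 1 control secretory cells had 4 mucin UMIs, just outside, and 2 Cre and 0 control cells had 5, just inside.

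**Figure D1:**
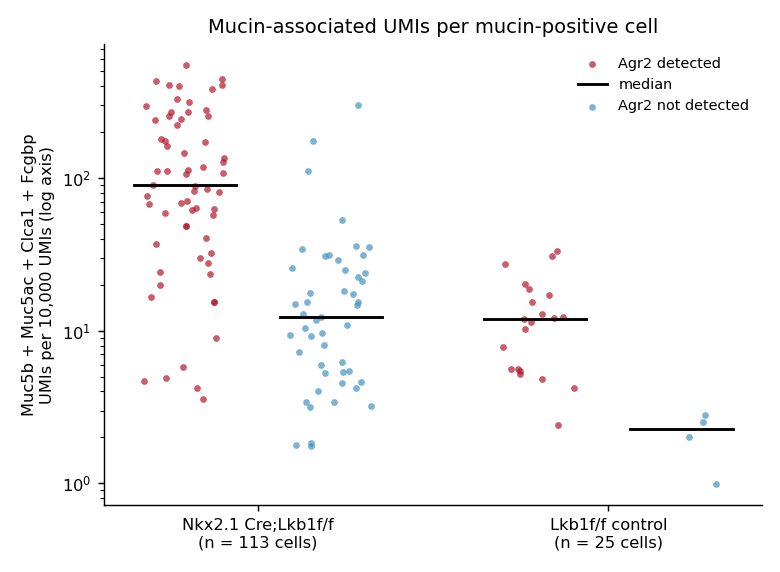
Summed Muc5b, Muc5ac, Clca1 and Fcgbp UMIs per 10000 UMIs in each mucin-positive cell (log axis), Nkx2.1 Cre;Lkb1f/f cells on the left and Lkb1f/f control cells on the right. Cells with Agr2 are red, cells without it blue, and black bars are medians; 49 of the 64 Cre cells with Agr2 lie above the highest control cell.

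The Cre cells carried more mucin RNA and a different mixture of it. The mucin sum had a median of 66 UMIs in Cre cells (5 to 1578) and 38 in control cells (6 to 195), and 48 Cre and 3 control cells reached 100. Scaled to depth, the medians were 32.3 per 10000 UMIs (1.76 to 551) in Cre and 10.2 (0.984 to 33.2) in control cells. The groups overlap at the low end, and 56 of 113 Cre cells lie above the control maximum, 49 with Agr2 and 7 without. A 3′ UMI count gives about 1 tag per captured transcript and was not divided by length. On that scale Clca1 was 57.1% of the mucin sum in Cre and 13.8% in control cells, whereas Muc5b was 39.7% in Cre and 82.5% in control cells. Fcgbp, a mucus-associated IgG Fc binding protein, was 2.52% and 1.78% in Cre and control cells. Muc5ac, the inducible gel-forming mucin, was 0.676% and 1.92%.

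The 4 genes of the sum differed in how widely they were expressed. Muc5b had 10038 UMIs in Cre cells (3403 CPM, median 56 per cell) and 1161 in control cells (956 CPM, median 37), 3.56-fold (3.35 to 3.79). Clca1 had 14443 UMIs (4896 CPM) in 56 Cre cells and 194 UMIs (159.8 CPM) in 9 control cells, 30.6-fold (26.6 to 35.5). No control cell reached 100 Clca1 UMIs, with a maximum of 49, whereas 25 Cre cells did, with a maximum of 1256. Fcgbp was 10.5-fold (7.05 to 16.4) and Muc5ac 2.61-fold (1.73 to 4.07) higher in Cre cells. Muc5ac was nevertheless found in 46.9% of Cre and 52% of control cells, with at most 14 and 6 UMIs in a cell.

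**Figure D2:**
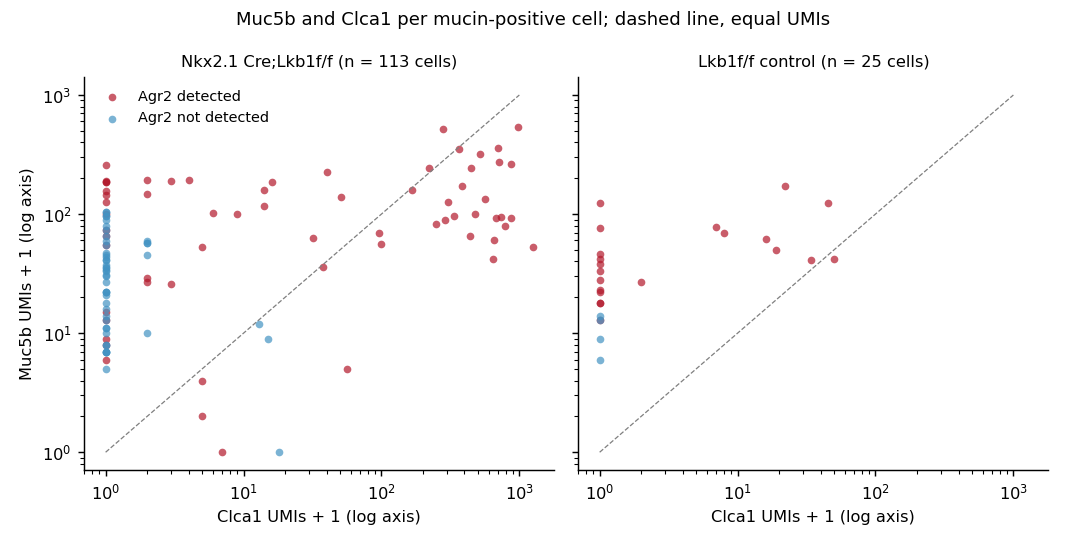
Muc5b against Clca1 UMIs, each plus 1 on log axes, in every mucin-positive cell, Nkx2.1 Cre;Lkb1f/f on the left and Lkb1f/f control on the right. Cells right of the dashed line hold more Clca1 than Muc5b, which applies to 33 of 113 Cre and 1 of 25 control cells, and no control cell exceeds 49 Clca1 UMIs.

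Within the Cre library the mucin-positive cells divided by Agr2. This division was chosen after the values were seen and is a description without a test. The 64 cells with Agr2 and the 49 without had similar depth, with medians of 24625.5 and 28317 UMIs, so the missing Agr2 did not go with shallow cells as a group. The mucin sum had medians of 190 and 30 UMIs in cells with and without Agr2. Clca1 made up 61.3% of it in cells with Agr2 and 2.65% in cells without, where Muc5b made up 95.6%. Of the Cre cells, 48 held both Agr2 and Clca1, 16 Agr2 alone, 8 Clca1 alone and 41 neither. In the control library 9 held both, 12 Agr2 alone, 0 Clca1 alone and 4 neither. The 3 Cre cells without Agr2 that exceeded 100 mucin UMIs per 10000 had at most 1618 UMIs in all.

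Secretory genes outside the rule followed the same division. Scgb3a1, a secretoglobin of upper airway secretory cells that the rule did use, had medians of 694.5 UMIs in Cre cells with Agr2 and 1 in cells without. Tff2, a trefoil peptide secreted with mucus, was found in 55 of 64 cells with Agr2 and 8 of 49 without, at 6901 and 35.3 CPM (195-fold, 146 to 267). Reg3g, a secreted antibacterial lectin, was 144-fold (125 to 167) and Chil4 247-fold (194 to 320) higher in cells with Agr2. Itln1, the intelectin of goblet cells, had 294 UMIs in 21 cells with Agr2 and 0 in cells without, at least 77.4-fold. Of the 49 cells without Agr2, 25 held no UMI of Tff2, Reg3g or Bpifb1, and 40 had at most 10 UMIs of Scgb3a1.

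Of 25 measured regulators, 8 were at least 2-fold higher in Cre cells with Agr2 and 1, Elf5, was lower (median 0.46 against 0.27 for all genes). Spdef was at 22.5 CPM in Cre cells with Agr2 and 3.84 CPM in those without (5.85-fold, 2.29 to 19.1). Foxa3 was at 21.8 CPM and 1.54 CPM, the second value from 2 UMIs (14.2-fold, 3.66 to 122). Xbp1, the transcription factor of the unfolded protein response, was 3.11-fold (2.33 to 4.21) higher. Of 43 measured genes of the endoplasmic reticulum and secretory path, 27 were at least 2-fold higher in cells with Agr2 and 0 lower, beside 16.5% of all 6823 measured genes higher and 3.65% lower (20.2% in either direction). Their median was 1.04 on the log2 scale against the same all-gene value. Of 17 measured mucin glycosylation genes, 12 were at least 2-fold higher and 0 lower (median 1.28).

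Other genes were higher in the Cre cells without Agr2. Scgb1a1, the club cell secretory protein, had medians of 6769 UMIs in cells with Agr2 and 14922 in cells without. Cyp2f2, the club cell cytochrome P450, had medians of 51 and 104. Sftpb, which encodes a surfactant protein, was 8.02-fold (6.82 to 9.48) lower in cells with Agr2, and Hp, haptoglobin, 3.68-fold (3.47 to 3.90) lower. Areg, the epidermal growth factor receptor ligand amphiregulin, was at 20.6 CPM in cells with Agr2 and 162 CPM in those without, 7.86-fold (5.45 to 11.6) lower, and 5 cells held 82.0% of its UMIs over all Cre cells. Them5, a mitochondrial acyl-CoA thioesterase, was found in 30 of 64 cells with Agr2 and 37 of 49 without, at 63.1 and 167 CPM.

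**Figure D3:**
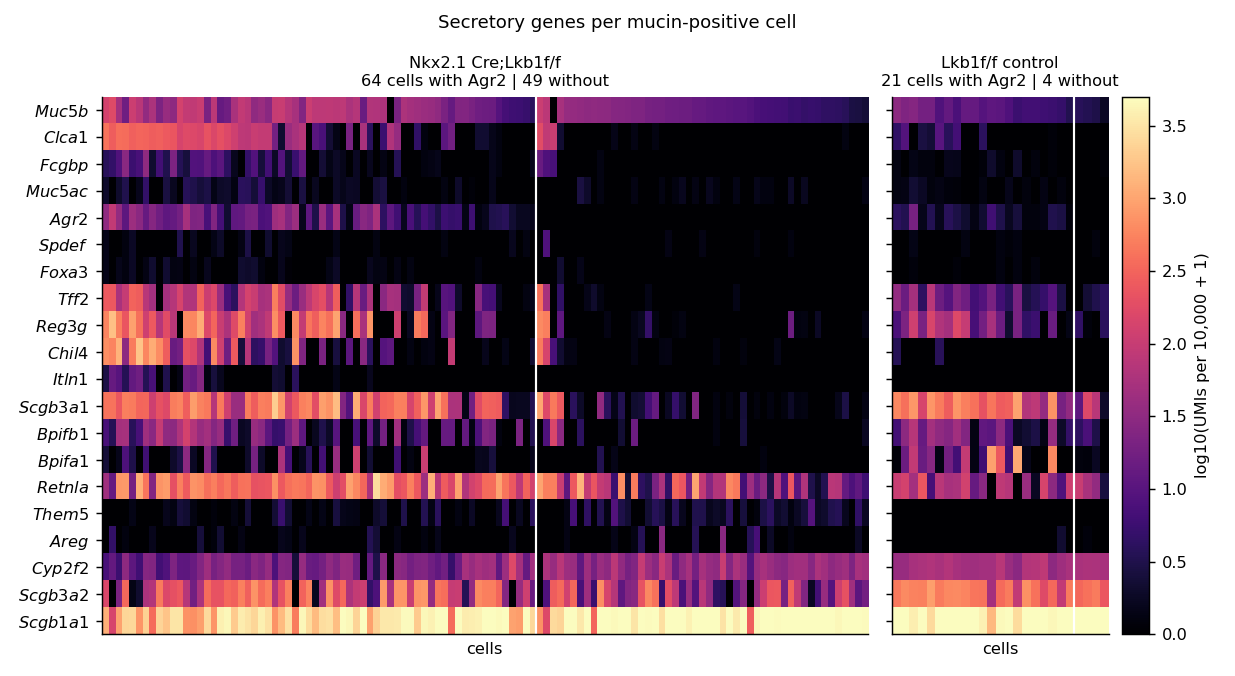
Expression of 20 secretory genes in each mucin-positive cell, as log10(UMIs per 10000 + 1), with Nkx2.1 Cre;Lkb1f/f cells on the left and Lkb1f/f control cells on the right. Cells left of each white line hold Agr2 (64 of 113 Cre, 21 of 25 control), and within each side cells run by decreasing mucin sum per 10000 UMIs. Within the Cre library Clca1, Tff2, Reg3g and Chil4 are bright mainly left of the line, and Tff2 and Reg3g are also present in 20 and 19 of the 21 control cells with Agr2, while Retnla and Scgb1a1 extend across nearly all cells.

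The Cre cells without Agr2 still differed from Cre mucin-low cells of at least 5000 UMIs in genes the rule did not use. Retnla was at 15974 CPM in the cells without Agr2 and 7083 CPM in those mucin-low cells, 2.26-fold (2.19 to 2.32). Reg3g was at 151 and 8.28 CPM (18.2-fold, 8.66 to 45.8). Gdf15, a stress-induced cytokine, was at 56.1 and 4.73 CPM (11.9-fold, 4.44 to 44.7). These levels rest on few cells: 5 of the 49 cells held 62.0% of the Retnla, 94.4% of the Reg3g and 98.6% of the Gdf15 UMIs. The median was 86 Retnla UMIs per cell, and the cells with 70 and 48 Reg3g UMIs had only 1379 and 764 UMIs in all. Over 5568 measured genes, 10.8% differed by 2-fold or more, 1.76% upward and 9.03% downward in the cells without Agr2, with an all-gene median of -0.24.

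Within cells of at least 5000 UMIs some pairs of genes varied together in both libraries and others in 1 of them. Across 105 Cre cells, Spearman's rho was 0.83 between Agr2 and Tff2, 0.81 between Clca1 and Tff2 and -0.71 between Agr2 and Scgb1a1. Across 25 control cells the values were 0.80, 0.50 and -0.65. Agr2 and Cyp2f2 had -0.61 in Cre and -0.32 in control cells, and Clca1 and Them5 had -0.46 in Cre cells. Agr2 and Retnla had 0.49 in Cre and -0.10 in control cells, and Clca1 and Fcgbp 0.80 and 0.23. These are descriptions over cells that share a library and a rule, on values per UMI of the cell, where a large Scgb1a1 share lowers all other values.

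Between genotypes, mucin-positive Cre cells were higher in many genes, and the composition of the cells enters this count. Scgb1a1 alone took 40.6% of the summed UMIs of Cre and 50.3% of those of control mucin-positive cells. The median ratio over all 7603 genes with at least 20 UMIs was 0.37 on the log2 scale (1.43-fold) in favour of Cre cells. At this scale 23.6% of them passed 2-fold, 1677 genes (22.1%) upward and 114 (1.5%) downward in Cre cells. With secretoglobin, mucin and mitochondrial UMIs left out of the denominator, 818 were higher and 288 lower. Gene lists are therefore given beside the all-gene median. In sums over a group of cells, another mix of cells and another amount of RNA per cell cannot be told apart.

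Genes known to be induced by type 2 cytokines had the largest median of the 20 functional lists. Of 14 measured, 9 were at least 2-fold higher in Cre cells and 1 lower, beside 22.1% and 1.5% of all genes, and the median was 2.24. Chil4 (chr3:106201490-106219507), a chitinase-like protein, had 20401 UMIs (6916 CPM) in 56 Cre cells and 30 UMIs (24.7 CPM) in 2 control cells, 280-fold (196 to 415). The top 5 Cre cells held 59.4% of these UMIs, so its level differed widely among the Cre cells. Chil3 (Ym1), its near copy, was at 318 CPM in Cre and 18.9 CPM in control cells (16.8-fold, 11.1 to 26.6), and reads of the near copies may be shared out imperfectly. A single Cre cell held 540 of the 937 Chil3 UMIs. Retnla (RELMα), a secreted resistin-like protein (chr16:48842551-48844461), had 96130 UMIs (32589 CPM) with a median of 398 per Cre cell and 7789 UMIs (6414 CPM) with a median of 273 per control cell, 5.08-fold (4.96 to 5.2).

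The same list held genes that were at 0 in control cells. Itln1 had 294 UMIs in 21 Cre cells and 0 in control cells, at least 40.3-fold higher against a floor of 3 counts in the group. Slc26a4, pendrin, an anion exchanger, had 121 UMIs in 30 Cre cells and 0 in control cells, at least 16.6-fold. Sprr2a3, a small proline-rich protein gene, had 107 and 0 UMIs in Cre and control cells (at least 14.7-fold), all of them in Cre cells with Agr2. Chia1, acidic mammalian chitinase, was at 83.1 CPM in Cre and 4.94 CPM in control cells (16.8-fold, 7.61 to 46.3). Within each library, however, Chia1 was at least 2-fold lower in mucin-positive than in mucin-low cells. The exception was Alox15, an arachidonate lipoxygenase, at 4.75 and 12.4 CPM in Cre and control cells (14 and 15 UMIs), 2.60-fold lower (1.17 to 5.82).

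Secreted goblet products outside the rule were higher in part. Of 13 measured, 6 were at least 2-fold higher and 1, Muc20, was lower, beside 22.1% and 1.5% of all genes, and their median of 0.37 equalled that of all genes. Agr2 was at 809 CPM in Cre and 196 CPM in control cells (4.13-fold, 3.61 to 4.74), with medians of 1 and 6 UMIs per cell. Tff2 was at 3871 CPM in Cre and 1307 CPM in control cells (2.96-fold, 2.81 to 3.12), found in 55.8% and 92% of cells. Tff1, a second trefoil peptide, had 306 UMIs in 15 Cre cells and 0 in control cells, at least 42.0-fold, with 95.4% of its UMIs in 5 cells. Reg3g was at 12178 CPM in 54.9% of Cre cells and 3463 CPM in 88% of control cells (3.52-fold, 3.41 to 3.63). For Tff2 and Reg3g the level of the sum was thus higher in Cre cells while the share of cells with a UMI was lower, also at 5000 UMIs per cell (46.7% of Cre and 80% of control cells for Tff2, 44.8% and 76% for Reg3g).

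Among 25 measured transcription factors of secretory and goblet cells, 8 were at least 2-fold higher in Cre cells and 0 lower (median 0.44). Over all genes 22.1% were higher and 1.5% lower, and the median of 0.37 was near that of this list. Sox9, a progenitor and secretory lineage factor, was at 72.2 CPM in Cre and 14.8 CPM in control cells (4.87-fold, 3.01 to 8.38). Foxa3 was at 12.9 and 4.12 CPM (3.13-fold, 1.23 to 10.2), and Spdef at 14.2 and 6.59 CPM (2.16-fold, 1.0 to 5.33). Creb3l4, a membrane-bound CREB relative, was 5.76-fold (1.84 to 29.1) higher, from 42 Cre and 3 control UMIs. The intervals for Foxa3, Spdef and Creb3l4 are wide because few UMIs were counted.

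Of 43 measured endoplasmic reticulum and secretory genes, 10 were at least 2-fold higher in Cre cells and 0 lower (median 0.59). This count is near the 22.1% of all genes that were higher. Sec23b, a COPII coat subunit, was 3.14-fold (2.24 to 4.50) higher, and Manf, secreted under endoplasmic reticulum stress, 2.33-fold (1.97 to 2.76). Of 19 measured mucin glycosylation genes, 7 were higher and 1 lower (median 0.53). C1galt1, which extends the core of mucin O-glycans, was at 76.6 CPM in Cre and 17.3 CPM in control cells (4.43-fold, 2.83 to 7.30). When only cells with Agr2 were compared, 21 of 43 secretory path genes and 12 of 17 glycosylation genes were at least 2-fold higher in Cre cells, beside 25.8% of 6305 genes higher and 1.9% lower (27.7% in either direction). A cell counted as holding Agr2 from a single UMI, at median depths of 24625.5 UMIs in these Cre and 49549 in these control cells. The groups are thus not matched in Agr2 level, a limit of every comparison of cells with Agr2 between genotypes.

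A list of CRTC coactivators and of genes induced by CREB, which these coactivators drive, was also higher. Of 21 measured, 14 were at least 2-fold higher in Cre cells, Creb1 itself among them, and 0 lower, with a median of 1.26. Over all genes 22.1% were higher and 1.5% lower. In mucin-low cells 11 of 18 were higher in Cre cells and 0 lower (median 0.83 against 0.52), beside 27.7% and 1.54% of all genes. Nr4a3 and Nr4a2, nuclear receptors of the immediate early response, were at 40.3 CPM against 0 UMIs (at least 16.3-fold) and at 118 against 25.5 CPM (4.62-fold, 3.20 to 6.91) in Cre and control cells. Ptgs2, cyclooxygenase 2, was 3.52-fold (2.83 to 4.41) higher. Areg was at 83.1 CPM in Cre and 4.94 CPM in control cells (16.8-fold, 7.61 to 46.3), most of it in cells without Agr2. Several of these genes also respond to tissue dissociation, and the 22 dissociation genes had a median of 0.52 with 3 higher and 0 lower. The 13 measured genes of the LKB1 and AMPK family had a median of 0.29, with 2 higher (Prkab2, Sik3) and 0 lower.

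Alarmins, chemokines and NF-κB targets were higher in part. Of 22 measured, 8 were at least 2-fold higher in Cre cells and 0 lower (median 0.83), beside 22.1% and 1.5% of all genes. Il33, an alarmin that acts on type 2 innate lymphoid cells, had 26 UMIs in 17 Cre cells and 0 in control cells, at least 3.57-fold. Cxcl1, a neutrophil chemokine, was 3.64-fold (2.05 to 7.05) higher. Cxcl10, an interferon-induced chemokine, had 50 Cre UMIs, of which 1 lay in cells with Agr2.

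Beyond the lists, the leading genes higher in Cre cells were Chil4, Them5, Tff1, Itln1, Fer1l6, Gclc, Pmepa1, Retnla, Ccnd2, Slc6a14, Kcnj15 and Wfdc1. Them5 (chr3:94342099-94347352) had 322 UMIs in 67 Cre cells and 0 in control cells, at least 44.2-fold. It was not particular to mucin-positive cells, with 120 CPM in Cre and 1.29 CPM in control mucin-low cells. Gclc, the catalytic subunit of glutathione synthesis, was at 714 CPM in Cre and 119 CPM in control cells (6.02-fold, 5.08 to 7.18). With only cells that hold Agr2, Gclc was 3.68-fold and Them5 at least 21.4-fold higher in Cre cells. Fer1l6, a ferlin-family membrane protein gene, was 10.1-fold (5.69 to 19.7) higher and confined to cells with Agr2 among the Cre cells. Ccnd2, cyclin D2, was 6.82-fold (4.77 to 10.1) and Pmepa1, a TGF-β-induced membrane protein, 7.19-fold (5.06 to 10.5) higher.

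**Figure D4:**
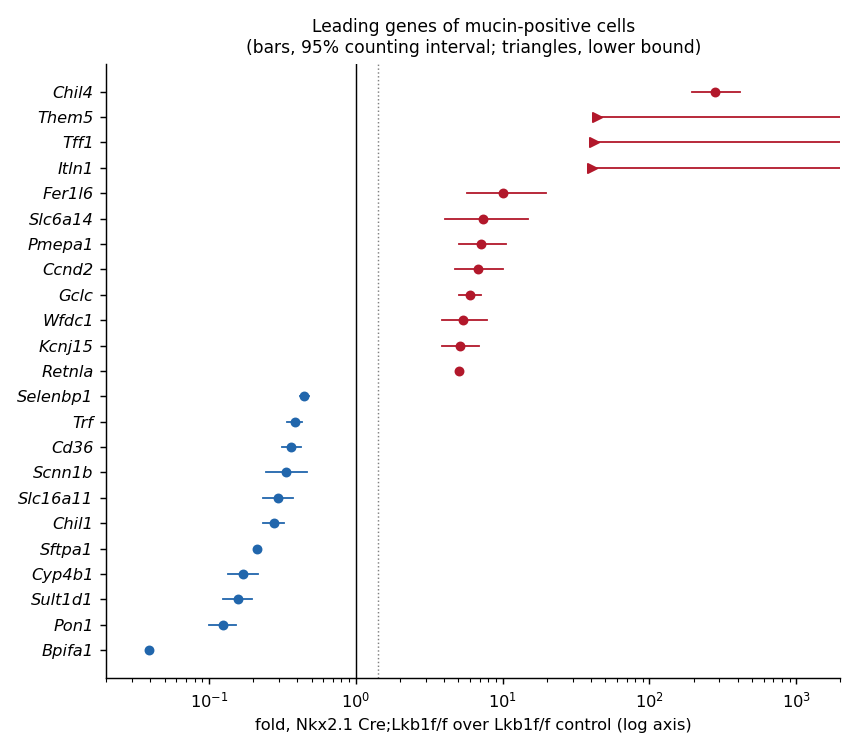
Fold of Nkx2.1 Cre;Lkb1f/f over Lkb1f/f control mucin-positive cells for 23 leading genes (log axis), with bars for the 95% counting interval. Triangles mark lower bounds for genes with 0 control UMIs, the solid line is 1 and the dotted line the all-gene median of 1.43; Chil4 stands at 280 and Bpifa1 is lowest at 0.0392.

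Fewer genes were lower in Cre cells, and several belong to host defence and xenobiotic metabolism. The leading genes included Bpifa1, Pon1, Sult1d1, Cyp4b1, Sftpa1, Chil1, Slc16a11, Cd36, Trf, Scnn1b and Selenbp1. Bpifa1 (SPLUNC1), a secreted surface-active defence protein (chr2:154142880-154149219), had 1290 UMIs (437 CPM) in 32 Cre cells and 13538 UMIs (11148 CPM) in 20 control cells, 25.5-fold lower (24.1 to 27.0). The top 5 control cells held 93.6% of the control UMIs, so this level rested on few cells. Detection ran the same way, since after thinning to 5000 UMIs Bpifa1 was seen in 21% of 105 Cre and 52% of 25 control cells. Bpifb1, its relative, was at 1044 CPM in Cre and 1719 CPM in control cells, 1.65-fold lower (1.56 to 1.74).

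Several enzymes were lower over more cells. Pon1, paraoxonase, was found in 26 of 113 Cre and 24 of 25 control cells, 8.07-fold lower (6.51 to 10.1). Sult1d1, a sulphotransferase, was found in 18 Cre and 25 control cells, 6.34-fold lower (5.06 to 7.99). In the control library Sult1d1 was itself among the leading genes higher in mucin-positive than in mucin-low cells. Cyp4b1, a cytochrome P450, was at 35.9 CPM in Cre and 211 CPM in control cells, 5.87-fold lower (4.66 to 7.43). Of 34 measured club cell and metabolic genes, 3 were at least 2-fold higher and 8 lower, with a median of -0.38 against 0.37 for all genes. Over all genes 22.1% were higher and 1.5% lower. Cyp2f2 was at 3163 CPM in Cre and 5191 CPM in control cells (1.64-fold lower, 1.59 to 1.69). Of 16 measured antimicrobial genes, 3 were higher (Reg3g, Slpi, Wfdc12) and 6 lower (among them Bpifa1 and Lcn2), with a median of -0.67. The neutrophil markers S100a8 and S100a9 are among the 6, and the 7 neutrophil markers summed to 151 CPM in Cre and 248 CPM in control mucin-positive cells, with 3 of 4 measured lower and 1 higher.

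Sftpa1, a surfactant protein that club cells also make, was at 1361 CPM in Cre and 6369 CPM in control cells, 4.68-fold lower (4.50 to 4.86). It was found in 99 of 113 Cre and 25 of 25 control cells, with medians of 8 and 298 UMIs. In mucin-low cells it was at 3306 CPM in Cre and 3261 CPM in control cells, 1.01-fold (0.973 to 1.06). Sftpa1 is itself 1 of the 10 alveolar type 2 markers summed above, so those sums do not stand apart from it. Of the 10, 5 were at least 2-fold lower in Cre mucin-positive cells, Sftpa1 among them, and 0 higher. Over all genes 1.5% were lower and 22.1% higher. With only cells that hold Agr2, Bpifa1 was 17.1-fold (16.1 to 18.1), Pon1 4.64-fold (3.63 to 5.96) and Sftpa1 3.97-fold (3.80 to 4.15) lower in Cre cells, and Sult1d1 and Scnn1b 3.97-fold and 5.41-fold lower. Pmepa1 was 10.9-fold (7.35 to 16.9) higher in that contrast.

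Each library also gives the contrast of its mucin-positive with its mucin-low cells. The rule chose both groups on RNA of the same cells, so these are descriptions. In the Cre library 13.4% of 7781 genes passed 2-fold, 515 (6.62%) upward and 530 (6.81%) downward in mucin-positive cells. In the control library 15.1% of 6812 passed it, 496 (7.28%) upward and 534 (7.84%) downward. Reg3g was 412-fold (283 to 626) higher in Cre and 513-fold (335 to 829) higher in control mucin-positive cells, and Tff2 122-fold (84.9 to 182) and 131-fold (92.0 to 194). Agr2 was 35.2-fold (23 to 57.0) higher in the Cre and 76.2-fold (38.0 to 179) in the control library, and Bpifb1 32.9-fold (22.9 to 49.3) and 124-fold (91.9 to 172).

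Secreted goblet products and antimicrobial genes had list medians above that of all genes in both libraries. Of 13 goblet products measured in the Cre library, 10 were at least 2-fold higher and 0 lower (median 1.45 against -0.08 for all genes). Over all genes of that library 6.62% were higher and 6.81% lower. Of 10 in the control library, 7 were higher and 0 lower (median 1.29 against 0.06), beside 7.28% and 7.84% of all genes. Antimicrobial genes had 7 higher and 2 lower of 15 in the Cre (median 0.70) and 8 higher and 1 lower of 14 in the control library (median 1.73). Ltf, the iron-binding protein lactoferrin, was 8.73-fold (6.50 to 12) higher in Cre and 53.0-fold (38.7 to 74.3) higher in control mucin-positive cells. Glycosylation genes had 9 higher and 2 lower of 18 in the Cre library (median 0.83) and 5 higher and 0 lower of 14 in the control library (median 0.49).

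Bpifa1 was 66.6-fold (30.5 to 182) higher in Cre and 324-fold (268 to 396) higher in control mucin-positive cells. In the Cre library Chil4 was at 6916 CPM in mucin-positive and 26.2 CPM in mucin-low cells (263-fold, 177 to 411). In the control library it had 30 UMIs in 2 mucin-positive cells and 0 in mucin-low cells, at least 25.6-fold. Retnla was 4.15-fold (4.05 to 4.25) higher in Cre and 5.16-fold (4.96 to 5.36) higher in control mucin-positive cells. The leading genes lower in mucin-positive cells included Sftpc, Cldn18 and Lyz2 in the Cre library and Col3a1, Mgp and Igfbp6 in the control library. The mucin-low groups held 6 Cre and 7 control cells with Sftpc above 5% of UMIs, against 1 Cre and 0 control mucin-positive cells. Fibroblast markers, Col3a1 among them, were at least 2-fold lower in mucin-positive cells for 6 of 6 measured in the control and 4 of 5 in the Cre library. Endothelial markers were lower for 5 of 8 in each, and 0 of either type were higher. Over all genes 7.84% were lower in the control and 6.81% in the Cre library. The part of these markers was not tested.

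**Figure D5:**
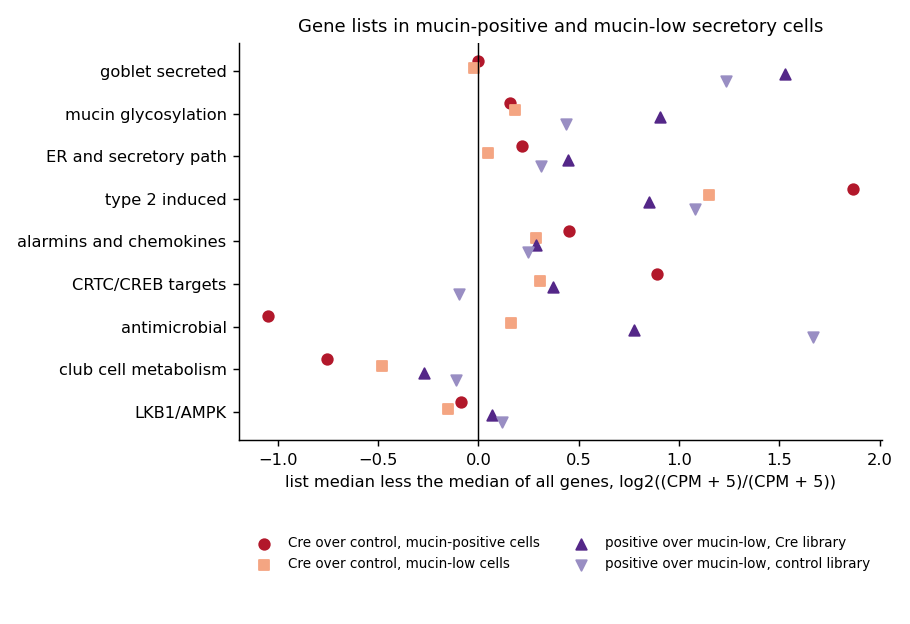
Median of 9 gene lists less the median of all genes, as log2((CPM + 5)/(CPM + 5)), for Cre over control in mucin-positive and mucin-low cells and for mucin-positive over mucin-low cells in each library. In mucin-positive cells the type 2 list lies highest for Cre over control at 1.86 and the antimicrobial list lowest at -1.05, while goblet products lie highest for mucin-positive over mucin-low cells of the Cre library at 1.53.

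The genotype difference was not confined to mucin-positive cells for every list. In mucin-low cells the type 2 list had 8 of 10 measured genes at least 2-fold higher in Cre cells and 1 lower (median 1.67 against 0.52 for all genes), beside 27.7% of 6970 genes higher and 1.54% lower (29.3% in either direction). Retnla was at 7859 CPM in Cre and 1244 CPM in control mucin-low cells (6.32-fold, 6.08 to 6.57). Some markers of other cells also differed in this contrast. The 10 myeloid markers summed to 1293 CPM in Cre and 1319 CPM in control mucin-low cells, and of the 5 measured 3 were at least 2-fold higher in Cre cells and 0 lower. The 7 erythroid markers summed to 1869 and 116 CPM. Chil3 and Arg1, which macrophages also express, are among the 8 type 2 genes, and the part of these markers was not tested. The Retnla level in Cre mucin-low cells lies near the control mucin-positive level of 6414 CPM. Bpifa1 was at 6.56 and 34.4 CPM in Cre and control mucin-low cells, 5.24-fold lower (2.33 to 14.6). The antimicrobial list had 6 higher and 3 lower of 14 in mucin-low cells, against 3 higher and 6 lower of 16 in mucin-positive cells. Whether any list differed more between genotypes in mucin-positive than in mucin-low cells was not tested.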

How the data were processed

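Total lung cells of 2 genotypes, 1 library each, were profiled with Chromium 3′ v3 chemistry, per the labels' protocols. Cell Ranger 3.1.0, STAR and mm10 are named in the submitters' processing notes. The deposited matrices hold raw UMI counts per gene and barcode, per the file headers. Cells were chosen by the stated rule. UMIs were summed per group and given as CPM of the sum, with exact conditional 95% intervals of a ratio of Poisson counts and Clopper-Pearson intervals for shares (scipy 1.17.1), which cover counting error only. A gene was called at 2-fold with at least 20 UMIs over both groups. The 12 highest and 12 lowest genes by the interval bound nearest 1, at 50 CPM or more (between genotypes also at 0.5 or more of the level in that library's other cells), were named by the same rule in every contrast, together with members of 20 functional lists, whose medians use log2 of CPM plus 5 and leave out genes of the rule. Mitochondrial, ribosomal, haemoglobin, immunoglobulin, T cell receptor, sex-linked, predicted, dissociation and rule genes were left out of the naming. A gene with 0 UMIs in 1 group is given as a lower bound at 3 counts. Scrublet (scanpy 1.11.5) called 454 Cre and 420 control barcodes doublets, and none were removed. Free RNA was not subtracted. Gene positions are from GENCODE M21 (30934 of 31053 genes matched). The ratio intervals were tested on simulated counts. The cells, lists and rules were chosen with earlier results of these data known. Of the leading genes, 1 is not reported here.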

Additional observations from a re-analysis of the deposited data

How the results depend on the processing

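No paired analysis was possible because each genotype is 1 library, and for the same reason no library could be left out. The log2 ratio of the mucin-positive share ran between 1.78 and 3.75 over 9 alternatives and moved in 1, the thinning to 2000 UMIs (3.75). With genes of at least 1 UMI the counts at 2-fold were 6334 between genotypes in mucin-positive cells, 5458 and 5533 for mucin-positive over mucin-low cells in the Cre and control libraries, and 7093 between genotypes in mucin-low cells. With at least 50 UMIs they were 871, 415, 404 and 889. Averaged over cells, 2650 Cre and 1914 control genes separated mucin-positive from mucin-low cells. With secretoglobin, mucin and mitochondrial UMIs out of the denominator 1106 genes differed between genotypes in mucin-positive and 778 in mucin-low cells. The other settings kept the counts within 1.5 times.

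List medians, less the all-gene median, moved in 26 of 840 recomputed values. MHC class II between genotypes came to -0.88 at 10 mucin UMIs, -0.56 at 5% secretoglobins, -0.55 at 10% mitochondrial UMIs, -0.56 without Sftpc-high cells and -1.27 with only cells holding Agr2. For mucin-positive over mucin-low cells of the Cre library it was -0.57 with a pseudocount of 20 CPM, -1.21 at 10 mucin UMIs, -0.57 without Sftpc-high cells and -1.30 with only cells holding Agr2. Averaged over cells, the EGF family gave 0.30 and 0.31, oxidative phosphorylation -0.28 and -0.13 and MHC class I -0.15 and -0.37 in the Cre and control libraries, and LKB1 and AMPK -0.10 and interferon -0.071 in the control library. Glycosylation in the control library was 0.22 with a pseudocount of 20 CPM, and glycolysis between genotypes -0.25 with the smaller denominator. With only cells holding Agr2, interferon between genotypes was -0.32, the Cre secretory path 0.72, and cell cycle, over 2 genes, changed sign to -0.15 (0.51 over 4 genes as reported). Cell cycle between genotypes was also 0.84 and 0.23 with pseudocounts of 1 and 20 CPM and 0.72 with the smaller denominator, and -0.054 in the Cre library with only cells holding Agr2. The cause of these shifts was not tested. Of 288 recomputed folds of the 24 leading genes, 46 moved and 0 changed direction. Without the 5 cells highest in mucin per library, Chil4 was at least 1561-fold, Tff1 at least 13.96-fold and Itln1 at least 21.5-fold higher in Cre cells. The Chil4 value is a lower bound because the only control cells with Chil4 UMIs were among those left out, so it is not a rise over the reported fold. That setting and the restriction to Agr2 were chosen after seeing the data. Depth limits Spdef, Foxa3 and other genes of few UMIs, and 25 control cells limit every share in that library.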

Other observations

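Ion transport genes of the mucin-positive cells differed in both directions between genotypes. Of 23 measured, 5 were at least 2-fold higher in Cre cells and 4 lower (median 0.20 against 0.37 for all genes). Over all genes 22.1% were higher and 1.5% lower, so the count of higher genes is near the share of all genes. Ano1, the calcium-activated chloride channel, was at 69.5 CPM in Cre and 25.5 CPM in control cells (2.72-fold, 1.86 to 4.11). Scnn1b, a subunit of the epithelial sodium channel, was at 24.4 CPM in Cre and 72.5 CPM in control cells, 2.97-fold lower (2.15 to 4.11). Ligands and receptors of the epidermal growth factor family had 3 higher (Areg, Btc, Hbegf) and 0 lower of 8 measured, beside the same shares of all genes. Hbegf was at 222 CPM in Cre and 93.1 CPM in control cells (2.39-fold, 1.95 to 2.94), and 310 and 111 CPM in Cre cells with and without Agr2.

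Of 26 measured glutathione and NRF2 genes, 5 were at least 2-fold higher in Cre mucin-positive cells and 1 lower, with a median of 0.09. Each list count of this paragraph stands beside 22.1% of all genes higher and 1.5% lower between genotypes. Slc7a11, the cystine importer, was at 69.5 CPM in Cre and 16.5 CPM in control cells (4.22-fold, 2.66 to 7.05), and in Cre cells at 24.9 CPM with Agr2 and 126 CPM without. Gclc ran the same way, at 447 CPM in Cre cells with Agr2 and 1051 CPM in those without. Interferon genes had 2 higher and 0 lower of 8 between genotypes. Rsad2 had 40 UMIs in Cre cells, 38 of them in 1 cell without Agr2, and Mx1 had 28, of which 25 lay in cells with Agr2. Glycolysis (1 of 14 higher), oxidative phosphorylation (1 of 26), MHC class I (1 of 9), MHC class II (1 of 5) and cell cycle (2 of 4) had 0 genes lower between genotypes. Cd74, the MHC class II invariant chain, was at 27.9 CPM in Cre cells with Agr2 and 124 CPM in those without.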
